A study of Homo sapiens with 6 samples.

Results

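Lysyl oxidases and collagen hydroxylases were followed in the human glioma cell line U251, an established line of astrocytic origin, grown on electrospun nanofibers of the polyester poly-caprolactone. The 10 genes were LOX, LOXL1, LOXL2, LOXL3 and LOXL4, the lysyl hydroxylase genes PLOD1, PLOD2 and PLOD3, and the prolyl hydroxylase subunit genes P4HA1 and P4HA2. They were chosen by name, with earlier results of these data known. The probe sets were those that the platform annotation gives to exactly 1 gene symbol among these 10, which took 20 of 54613 probe sets. In 3 cultures the fibers were highly aligned and in 3 cultures they lay at random. All 6 cultures were kept for 24 h in DMEM with 10% fetal bovine serum on coated 60 mm dishes, with no further agent, and each gave 1 Affymetrix array. The labels call the cultures independent, so differences among arrays of a group hold those among cultures, but all come from 1 cell line and each group was on fibers. The study asked how the orientation of the fibers bears on gene expression in migrating glioma cells.

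Collagen is modified while it is folded and cross-linked after it is secreted. In the endoplasmic reticulum prolyl 4-hydroxylases, whose catalytic alpha subunits P4HA1 and P4HA2 pair with P4HB, make the hydroxyproline that stabilises the triple helix, and lysyl hydroxylases make hydroxylysine, the site of glycosylation and of stable cross-links. Outside the cell the copper enzymes of the lysyl oxidase family convert lysine and hydroxylysine of collagen and elastin into reactive aldehydes that join neighbouring chains. The hydroxylases need oxygen, iron and ascorbate. Known targets of the hypoxia-inducible factors include LOX, PLOD1, PLOD2, P4HA1 and P4HA2, and this list is not a full one. Normal brain holds little fibrillar collagen outside vessels and meninges, while glioma cells can deposit matrix of their own.

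On aligned fibers LOX, PLOD1, PLOD2 and P4HA1 read lower than on random fibers by 1.21-fold to 1.39-fold, while LOXL1, LOXL2, PLOD3 and P4HA2 differed by less than 1.04-fold. LOXL4 was lower by 1.25-fold, within the range of those 4 genes but with more spread between arrays, and LOXL3 by 1.10-fold. None of the 10 genes passed the test over all genes: 0 had an adjusted p under 0.05 in limma, as did 0% of the 12381 genes tested, and the lowest adjusted p among the members was 0.463. At an unadjusted p under 0.05 in limma there were 4 members, all lower on aligned fibers, against 5.81% of all genes tested lower at that limit, 4.72% higher and 10.5% in either direction. By their means 7 of the 10 members were lower, against 47.5% of all genes, and the median log2 difference (aligned minus random) was -0.21 over the members and 0.01 over all genes tested. Since the members were chosen with earlier results of these data known, no share of all genes given here or below tests them as a set. The count of 4 was 3 without the array of aligned culture 3, which stands apart from the others, where 6.58% of all genes were at that limit and the median of the members was -0.16. It was 2 without aligned 2 or without random 1, with 8.38% and 9.67% of all genes at the limit, and 6 without random 3, with 5.04%.

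The promoters of LOX, PLOD1, PLOD2 and P4HA1, the 4 genes at an unadjusted p under 0.05, are shown with the core motif of their known regulator, the hypoxia-inducible factor, which also acts on P4HA2. RefSeq start sites of build GRCh38.p14 were given for 9 of the 10 members, all but LOXL2, with 12 start sites in all. The 250 bases before the start are printed 5′ to 3′ on the strand of the gene, and capitals mark the core hypoxia response motif, ACGTG or GCGTG, on either strand (as CACGT or CACGC where it lies on the other strand). Of the 3 LOX start sites the most upstream is shown, at chr5:122078260-122078509 on the minus strand. PLOD1 is at chr1:11934467-11934716 on the plus strand, PLOD2 at chr3:146161185-146161434 on the minus strand and P4HA1 at chr10:73096867-73097116 on the minus strand.
LOX: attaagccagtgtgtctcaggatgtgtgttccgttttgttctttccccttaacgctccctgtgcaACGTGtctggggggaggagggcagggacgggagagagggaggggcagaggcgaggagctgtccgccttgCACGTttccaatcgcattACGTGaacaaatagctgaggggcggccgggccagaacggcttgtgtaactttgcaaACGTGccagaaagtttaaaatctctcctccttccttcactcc
PLOD1: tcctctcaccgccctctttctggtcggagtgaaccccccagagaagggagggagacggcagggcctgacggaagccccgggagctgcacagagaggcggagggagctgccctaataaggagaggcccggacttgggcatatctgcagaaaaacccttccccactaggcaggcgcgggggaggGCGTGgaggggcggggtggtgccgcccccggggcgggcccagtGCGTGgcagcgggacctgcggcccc
PLOD2: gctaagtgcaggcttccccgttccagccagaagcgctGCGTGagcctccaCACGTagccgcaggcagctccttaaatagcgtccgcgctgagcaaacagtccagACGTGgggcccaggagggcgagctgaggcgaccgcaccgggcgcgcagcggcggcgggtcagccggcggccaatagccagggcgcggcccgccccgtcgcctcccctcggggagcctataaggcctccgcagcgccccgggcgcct
P4HA1: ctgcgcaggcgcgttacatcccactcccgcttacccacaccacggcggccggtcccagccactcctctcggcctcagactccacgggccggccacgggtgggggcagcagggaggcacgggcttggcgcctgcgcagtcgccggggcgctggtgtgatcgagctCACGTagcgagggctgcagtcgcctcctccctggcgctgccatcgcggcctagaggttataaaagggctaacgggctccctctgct

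The motif stood 4 times before this start of LOX, 2 times before PLOD1, 3 times before PLOD2 and 1 time before P4HA1, with overlapping matches counted separately. Before each of the other LOX starts the motif stood 2 times. Of the other 5 members with a start site it stood before 1, LOXL3, 246 bases upstream of the second of its 2 start sites, and before none of LOXL1, LOXL4, PLOD3 and P4HA2 in this window. The share of all 35116 RefSeq promoters of this length that held the motif was 43.2%, and 7.76% held it 3 or more times. At any of their starts 47.4% of genes held it. The median GC content was 58% over all these promoters, and 55.2% for the printed one of LOX. It was 70.4% for PLOD1, 72.4% for PLOD2 and 70% for P4HA1. Among the most upstream starts of members without the motif it ran from 54.8% (P4HA2) to 86.4% (LOXL4). The shares of all promoters and genes are not matched for GC content. The 4 genes were set apart by their values, and a match in these letters is a description and not a bound site. The search was added after values were seen. Whether the hypoxia-inducible factor has a part in the differences of the members was not tested.

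**Figure D1:**
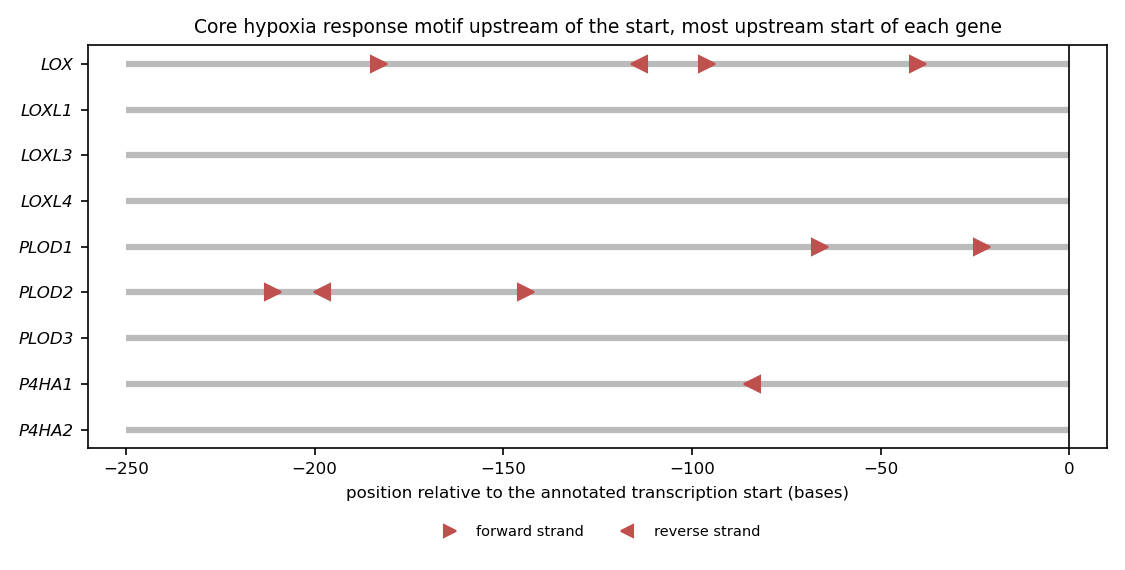
Positions of the core hypoxia response motif in the 250 bases before the most upstream annotated start of 9 members. The horizontal axis gives bases from the start and triangles give the strand of the match. LOX has 4 matches, PLOD2 has 3, PLOD1 has 2, P4HA1 has 1 and the other 5 genes have none at this start.

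LOX, the founding lysyl oxidase, is secreted as a proenzyme and acts on collagen and elastin. Its brightest probe set read 7.45, 7.44 and 7.19 on the aligned arrays 1, 2 and 3 and 7.76, 7.61 and 7.89 on the random arrays (log2 units throughout). All 3 aligned arrays lay below all 3 random arrays, which held for 3 of the 10 members and for 9.33% of all genes tested. With means of 7.36 ± 0.15 on aligned and 7.75 ± 0.14 on random arrays (SD, n = 3 for both), LOX was lower by a log2 difference of -0.40 ± 0.11 (SE), which is 1.32-fold (limma, unadjusted p = 0.00708, adjusted p = 0.463). Without aligned 3 the difference was -0.31. The second probe set of LOX above the brightness limit differed by -0.20 ± 0.19 (SE) with overlapping groups, and the dimmest of the 3, below the array median on every array, differed by 0.11. With the mean of both brighter probe sets LOX was at -0.30, with an unadjusted p of 0.0543 in limma, and with array weights at -0.25.

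LOXL1, which acts mainly on elastin, had no such separation. It read 10.90, 10.34 and 10.61 on aligned and 10.85, 10.45 and 10.40 on random fibers. The groups overlapped throughout, and the log2 difference was 0.04, with a 95% confidence interval of -0.36 to 0.45.

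LOXL2, a relative with scavenger receptor domains that cross-links collagen of basement membranes, read 10.92, 10.43 and 10.34 on aligned and 10.94, 10.45 and 10.37 on random fibers. Arrays of the same number matched closely, with differences of -0.020, -0.024 and -0.025 between the arrays numbered 1, 2 and 3, although the values within each substrate spread with an SD of 0.31. The difference between substrates was -0.02, with an interval of -0.48 to 0.44 in the fit that does not use the number. Its 4 probe sets differed by -0.12 to 0.06, and 2 of them were dim.

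LOXL3 and LOXL4, the other relatives with scavenger receptor domains, both had lower means on aligned fibers. LOXL3 read 6.34, 6.30 and 6.18 on aligned and 6.52, 6.47 and 6.24 on random fibers, a log2 difference of -0.14 ± 0.10 (SE) with overlapping groups (limma, adjusted p = 0.573). LOXL4 read 7.54, 7.41 and 7.52 on aligned and 8.19, 7.89 and 7.35 on random fibers. The aligned arrays of LOXL4 lay close together, with an SD of 0.07, and the random arrays spread with an SD of 0.43, random 3 being the lowest of all 6. The log2 difference of LOXL4 was -0.32 ± 0.20 (SE; limma, adjusted p = 0.538), which became -0.55 without random 3 and -0.13 without random 1. The second probe set of LOXL4 was dim and differed by 0.11.

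PLOD1, the lysyl hydroxylase of the triple helix, had the tightest aligned group of the 10 members. It read 9.35, 9.36 and 9.37 on aligned and 9.75, 9.58 and 9.58 on random fibers. The groups did not overlap, and every aligned array lay at least 0.2 log2 units under the random arrays. The means were 9.36 ± 0.01 and 9.64 ± 0.10 (SD, n = 3 for both), and their difference was -0.28 ± 0.08 (SE), which is 1.21-fold (limma, unadjusted p = 0.00711, adjusted p = 0.463). This difference lay between -0.31 and -0.22 with any 1 array left out, and its unadjusted p stayed under 0.05 in limma under all 15 other settings tried, the fit without aligned 3 included (-0.28).

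PLOD2, which hydroxylates lysine in the telopeptides of collagen and so sets the stable type of cross-link, was measured by a pair of bright probe sets. The brighter one read 10.70, 10.49 and 10.37 on aligned and 10.90, 10.78 and 10.78 on random fibers. The other one read 9.91, 9.78 and 9.55 on aligned and 10.10, 10.07 and 9.98 on random fibers. In both probe sets all aligned arrays lay below all random arrays, and the log2 differences were -0.30 and -0.30. For the brighter one the means were 10.52 ± 0.17 and 10.82 ± 0.07 (SD, n = 3 for both), with an SE of 0.10 for the difference, which is 1.23-fold (limma, unadjusted p = 0.0187, adjusted p = 0.463). Without aligned 3, the lowest of the 6 arrays, the difference was -0.22, and the unadjusted limit of 0.05 in limma was missed without aligned 2 and without random 1.

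PLOD3, the lysyl hydroxylase that also glycosylates hydroxylysine, read 11.28, 11.30 and 11.48 on aligned and 11.33, 11.31 and 11.30 on random fibers. The random arrays had an SD of 0.02, and aligned 3 was the highest of the 6. The log2 difference was 0.04, with a 95% confidence interval of -0.14 to 0.23, and without aligned 3 it was -0.02.

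P4HA1, the main catalytic subunit of collagen prolyl 4-hydroxylase in most cells, had the largest difference of the 10 members. It read 10.64, 10.20 and 10.02 on aligned and 10.97, 10.74 and 10.58 on random fibers. Aligned 1 lay above random 3, so the groups overlapped, but between arrays of the same number the differences were -0.33, -0.54 and -0.57. The means were 10.29 ± 0.32 and 10.76 ± 0.20 (SD, n = 3 for both), and their difference was -0.48 ± 0.17 (SE), which is 1.39-fold (limma, unadjusted p = 0.0254, adjusted p = 0.463). Without aligned 3 the difference was -0.34, with an unadjusted p of 0.0688 in limma, and that limit was also missed without aligned 2, random 1 or random 2. A fit blocked on the replicate number gave an unadjusted p of 0.00163 and an adjusted p of 0.362 in limma. The same block raised the unadjusted p of LOX to 0.0212 and of PLOD1 to 0.0116, and lowered that of PLOD2 to 0.00898 (limma).

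P4HA2, the alternative catalytic subunit, read 9.74, 9.58 and 9.89 on aligned and 9.78, 9.65 and 9.70 on random fibers. Aligned arrays held both the highest and the lowest value. The log2 difference was 0.03, with a 95% confidence interval of -0.20 to 0.25, and its other 2 probe sets differed by -0.06 and -0.10.

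**Figure D2:**
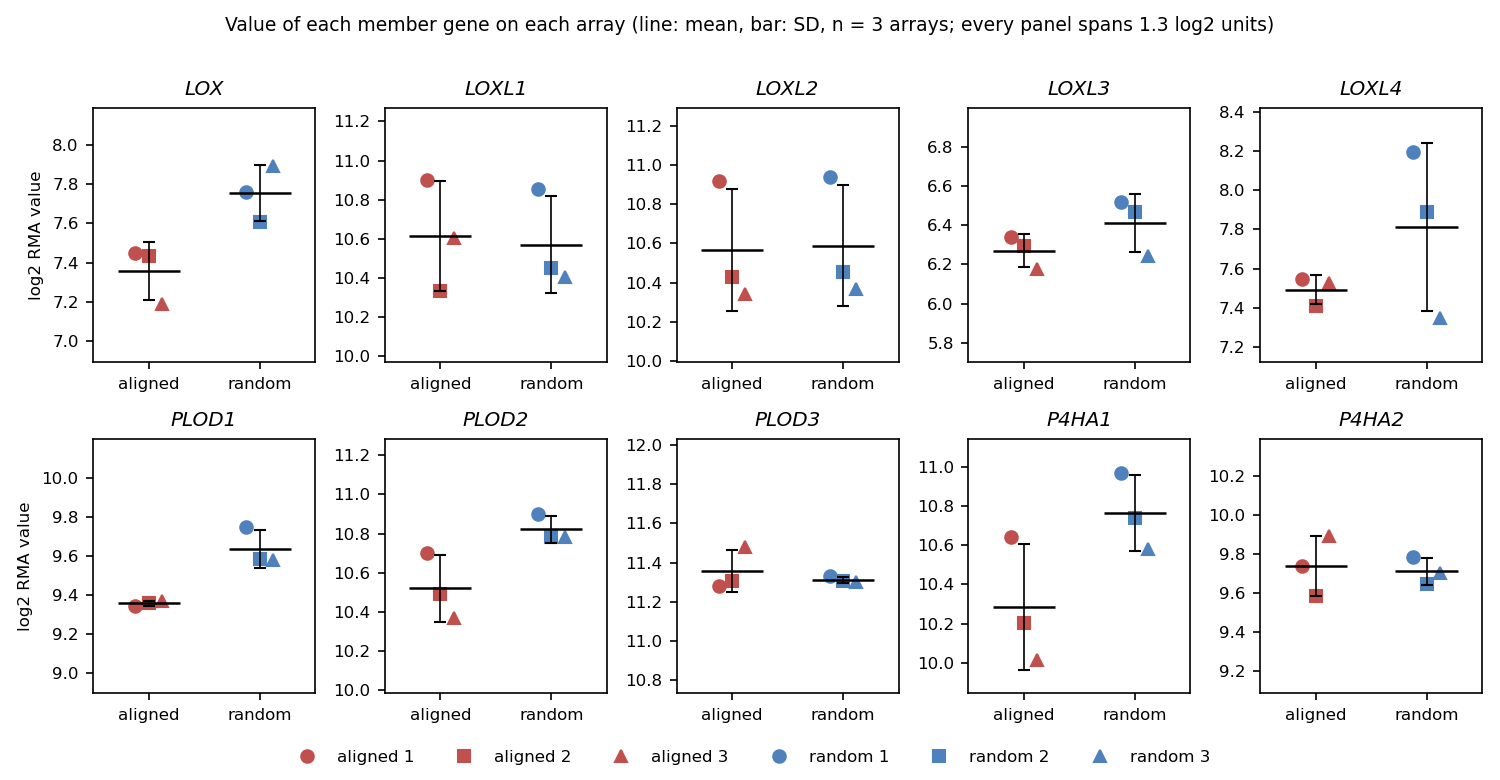
Log2 RMA value of the probe set that stands for each of the 10 genes, on each array. Points are arrays, with shape for the replicate number, lines are means and bars SD (n = 3), and every panel spans 1.3 log2 units. LOX, PLOD1 and PLOD2 have all aligned arrays below all random arrays, and the other 7 genes overlap.

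All 10 genes were represented by a probe set above the median of its array on all 6 arrays, so none passed the brightness filter through 1 group alone. Of their 20 probe sets, 14 passed the filter, 10 of these were lower on aligned fibers and 5 had an unadjusted p under 0.05 in limma, against 9.69% of the 27621 probe sets that passed. The 5 were 1 of LOX, 1 of PLOD1, 2 of PLOD2 and 1 of P4HA1. Of the 6 dim probe sets 3 were lower and 0 had an unadjusted p under 0.05 in the fit over all 54613 probe sets (limma), where 8.6% did. The dim probe sets of P4HA1 and LOX read 2.66 to 2.90 and 5.00 to 5.32 over the 6 arrays, and neither had the direction of the brighter sets of its gene.

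**Figure D3:**
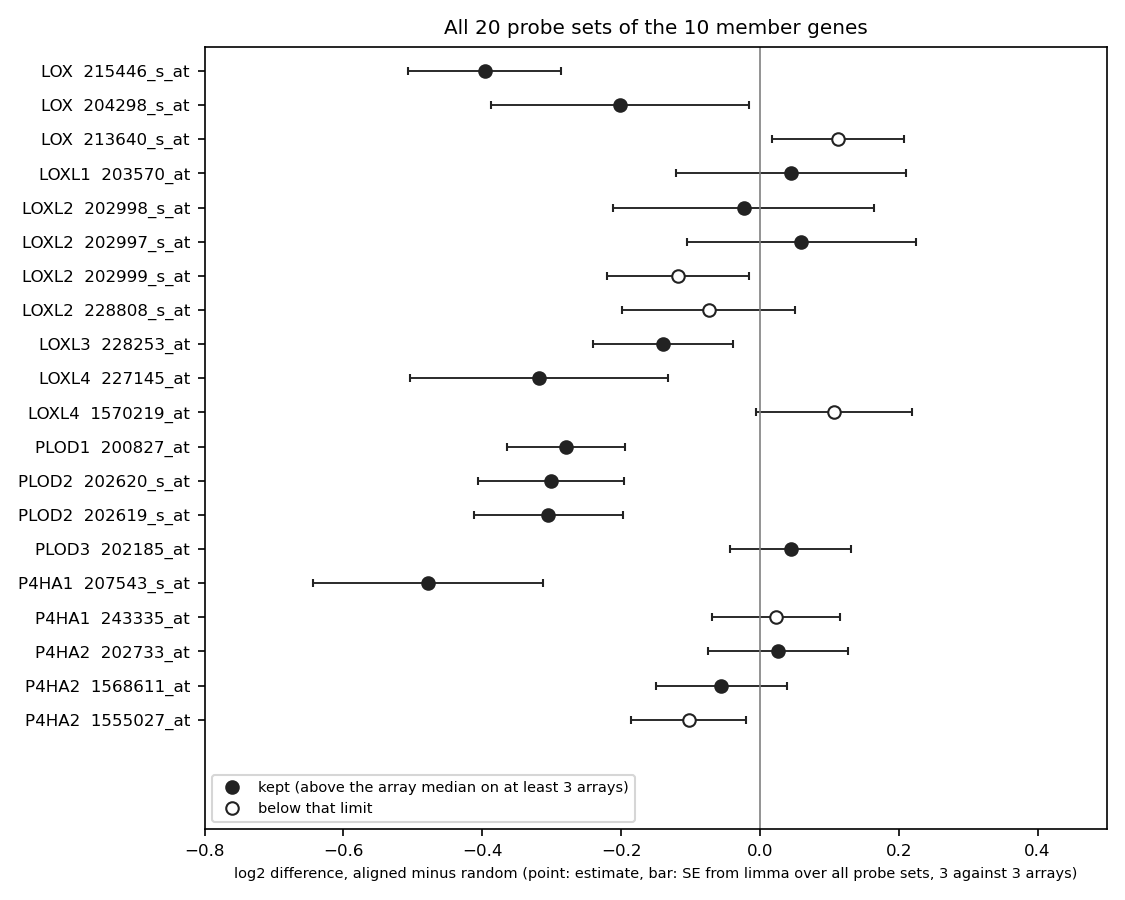
Log2 difference (aligned minus random) of all 20 probe sets of the 10 genes, with SE from limma over all 54613 probe sets. Filled points passed the brightness filter. Both PLOD2 probe sets lie at -0.30, and the probe sets of LOX lie at -0.40, -0.20 and 0.11.

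Within a family, the genes were compared by the difference between their log2 values on each array, over 14 pairs of relatives, with an exact two-sided permutation test that cannot give a p below 0.1 for 3 arrays against 3. PLOD1 was lower on aligned fibers relative to PLOD3 by a log2 of -0.32 ± 0.07 (SE), with no overlap (exact permutation p = 0.1, adjusted p = 0.467 over 14 pairs). PLOD2 relative to PLOD3 was at -0.35 ± 0.16, also with no overlap (exact permutation p = 0.1, adjusted p = 0.467). LOX relative to LOXL3 was at -0.26 ± 0.16 and was the third pair with no overlap. P4HA1 relative to P4HA2 was at -0.50 ± 0.24 with overlap (exact permutation p = 0.2, adjusted p = 0.467). PLOD1 and PLOD2 differed from each other in their response by 0.02 ± 0.11 (SE). The smallest p was reached by 3 of 14 pairs, and since this test could pass none at 0.05 with 6 arrays, it settles nothing about unequal responses of relatives.

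Replicate numbers run from 1 to 3 in both groups, and between arrays of the same number 9, 10 and 6 of the 10 members were lower on aligned fibers for the numbers 1, 2 and 3. In the same order, the median difference was -0.19, -0.17 and -0.045 over the members and -0.0020, 0.0060 and 0.015 over all genes tested. The members lower in all 3 of these comparisons were 6 of 10, against 22% of all genes tested. They were LOX, LOXL2, LOXL3, PLOD1, PLOD2 and P4HA1, with LOXL2 at close to 0. LOXL1, LOXL4, PLOD3 and P4HA2 were higher on the aligned array between the arrays numbered 3, by 0.20, 0.18, 0.18 and 0.19. The array numbered 1 was the highest of its substrate on both substrates in 6 of the 10 members, LOXL1 to LOXL4 with PLOD2 and P4HA1, against 14.8% of all genes tested.

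**Figure D4:**
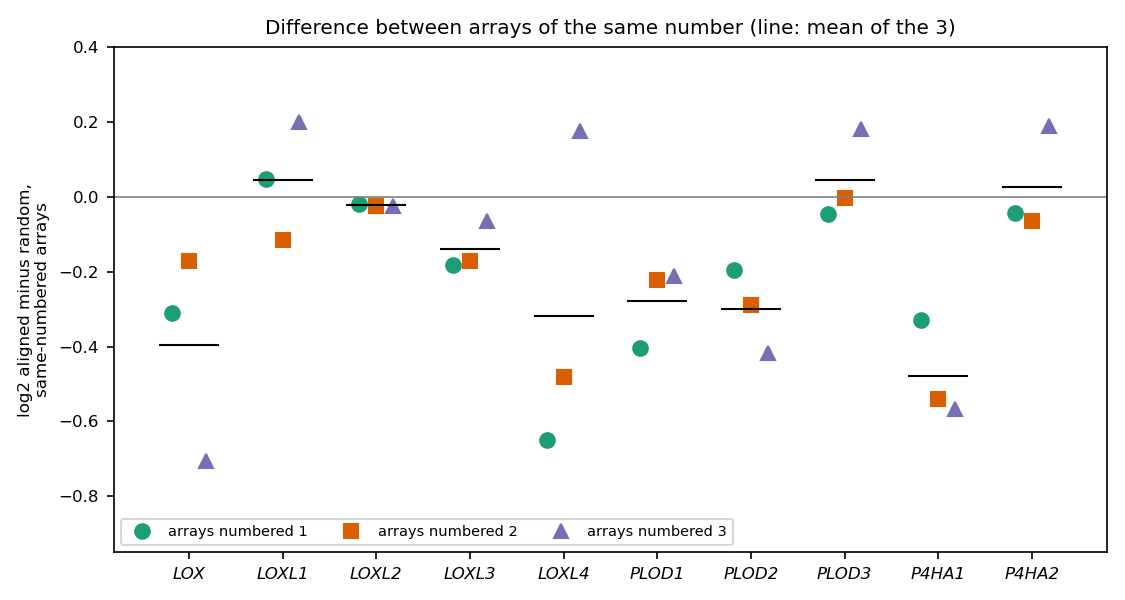
Log2 difference between the aligned and the random array of the same number, 3 points per gene, with the mean as a line. P4HA1, PLOD1, PLOD2, LOX and LOXL3 have all 3 points below 0, LOXL2 has all 3 near -0.02, and 4 genes have their arrays numbered 3 above 0.

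The other genes of the pathway were taken from 6 lists. Of 16 folding and modification partners 15 were measured, with a median log2 difference of -0.04. Among these 1 was higher and 0 lower at an unadjusted p under 0.05 in limma, against 4.72% and 5.81% of all genes tested. That 1 was P4HA3, the third catalytic alpha subunit, which read 6.32, 6.19 and 6.24 on aligned and 6.07, 5.91 and 5.76 on random fibers, a log2 difference of 0.33 ± 0.10 (SE; limma, adjusted p = 0.463). All aligned arrays of P4HA3 lay above all random arrays, as in 8.71% of all genes tested and in 0 of the 10 members. The collagen prolyl 3-hydroxylases P3H2 and P3H1 and the chaperone FKBP10 differed by -0.23, -0.11 and -0.17, and P4HB, the shared partner of the P4HA subunits, by -0.15 (limma, adjusted p = 0.593), or -0.08 without aligned 3. Of 8 proteases and enhancers of procollagen processing 3 were measured, and BMP1, which also cleaves the LOX proenzyme, differed by 0.19 ± 0.14 (SE), or 0.07 without aligned 3, while PCOLCE2 and PCOLCE differed by -0.17 and -0.09.

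Of 13 collagen genes, the substrates of these enzymes, 12 were measured and 6 had a higher and 6 a lower mean, with a median of -0.0013. At an unadjusted p under 0.05 in limma 1 was higher and 2 were lower, against 4.72% and 5.81% of all genes tested. COL6A3 read 8.46, 8.73 and 9.68 on aligned and 8.37, 8.17 and 7.95 on random fibers, a difference of 0.79 ± 0.29 (SE). COL8A1 and COL11A1 were at -0.78 ± 0.31 and -0.80 ± 0.32, and COL5A2 at -0.47 ± 0.21 (limma, adjusted p between 0.463 and 0.474 for the 4 genes). In each of these 4 the array aligned 3 lay farthest from the random arrays, and without it they were at 0.43, -0.39, -0.42 and -0.26. COL11A1 lay near the brightness limit, between the 31.0th and 58.6th percentiles. It read 5.39 and 4.55 on aligned 2 and 3, below the array medians of 5.65 and 5.64, and 6.18, 6.14 and 6.04 on random fibers.

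Of 15 genes of elastic fibers and partners of LOX 11 were measured, with a median of -0.12 (-0.04 without aligned 3). LTBP2, a protein of elastic microfibrils, was at 0.50 ± 0.15 (SE) and EFEMP2, the fibulin that binds both LOX and elastin, at -0.24 ± 0.09, each with no overlap, an unadjusted p under 0.05 and an adjusted p of 0.463 and 0.466 in limma. ATP7A, the copper pump that loads lysyl oxidases, was at -0.24 ± 0.12 and LTBP1 at 0.24 ± 0.12, and without aligned 3 they were at -0.12 and 0.11. Of 12 ligands and response genes of TGF-beta, a known inducer of LOX and PLOD2, 11 were measured with a median of 0.01. TGFB1 and TGFB2 were at -0.38 ± 0.12 and -0.30 ± 0.09 (limma, adjusted p = 0.463 for each), both with no overlap, and the target genes CCN2 and SMAD7 at 0.64 ± 0.35 and 0.25 ± 0.18. Without aligned 3 TGFB1 was at -0.25 and SMAD7 at 0.06. The difference of CCN2 leaned on random 3, which read 9.81, against 11.26 and 11.05 on random 1 and 2. On aligned fibers CCN2 read 11.51, 11.11 and 11.43.

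Of 18 oxygen sensors, hypoxia-inducible factors and other targets of these factors 16 were measured, with 12 lower and a median of -0.18 (-0.14 without aligned 3). At an unadjusted p under 0.05 in limma 5 were lower and 0 higher, against 5.81% and 4.72% of all genes tested. In 7 of them all aligned arrays lay below all random arrays, against 9.33% of all genes. EGLN3, a prolyl hydroxylase that acts on the factors themselves, read 6.99, 6.87 and 6.49 on aligned and 7.09, 7.20 and 7.67 on random fibers, a difference of -0.54 ± 0.18 (SE; limma, adjusted p = 0.463). BNIP3, KDM3A and NDRG1, targets of the factors, were at -0.34 ± 0.11, -0.34 ± 0.13 and -0.25 ± 0.09 (SE). The transcripts of the factors, HIF1A and EPAS1, were at -0.18 ± 0.16 and 0.31 ± 0.23, and VEGFA, another target, at 0.01 ± 0.15. Without aligned 3 these 3 were at -0.0071, 0.11 and -0.11. Hypoxia targets were known to be lower on aligned fibers from earlier results of these arrays, so their direction is no independent evidence for that of the members.

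**Figure D5:**
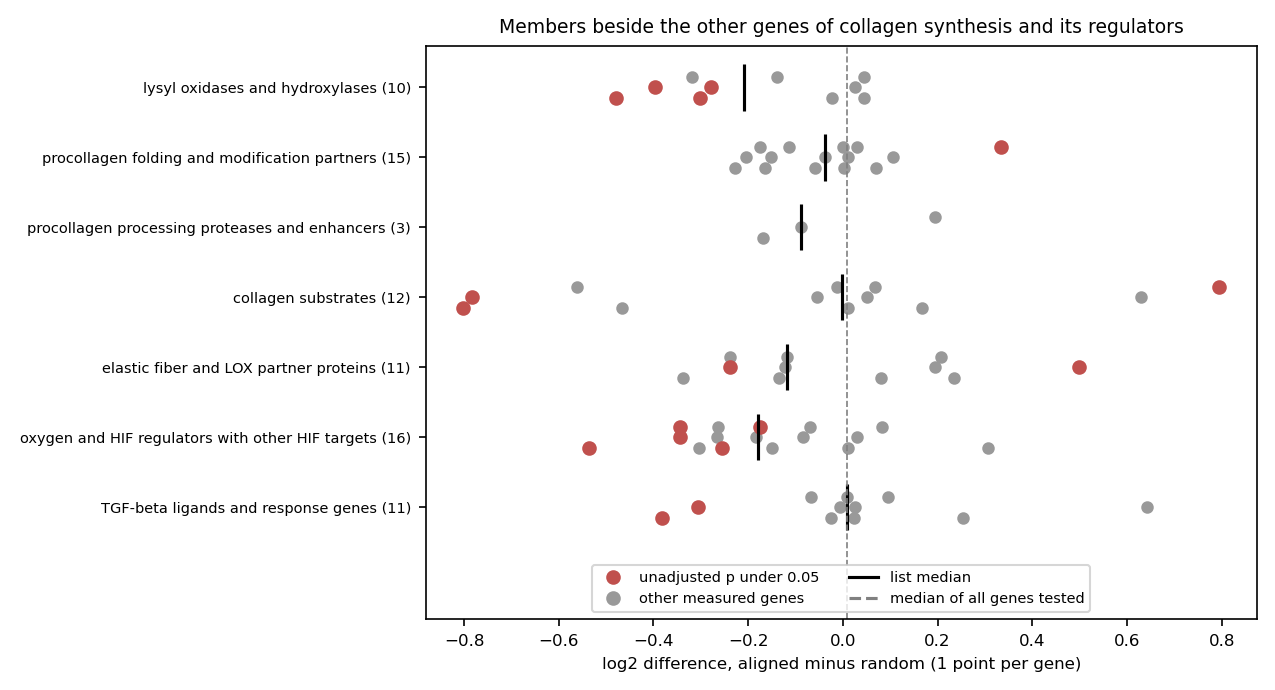
Log2 difference (aligned minus random) of each measured gene, by list, with the 10 lysyl oxidases and hydroxylases at the top. Red points have an unadjusted p under 0.05 in limma, black lines are list medians and the dashed line is the median of all genes tested at 0.01. The members reach from -0.48 to 0.04, whereas the collagen genes reach from -0.80 to 0.79.

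Among the arrays aligned 3 stood apart, at 31.6 on the first principal component (62.0% of variance), where the others ranged from -11.7 to 6.33. The cells carried the labelled line's mesenchymal and neural markers, with VIM, CD44, NES and SOX2 above the 95th percentile of every array. Among astrocyte genes AQP4 and S100B were dim, GFAP lay between the 36.4th and 64.6th percentiles and SLC1A3 between the 86.0th and 91.8th. S100B, GFAP, SOX9 and SOX2 differed by -1.13, -0.81, -0.53 and -0.44, and EGFR went the other way, at 0.45. The 10 glioma and astroglial markers had a summed linear level of 28792 to 34702 on aligned and 34273 to 36635 on random fibers. Of markers of other cell types, EPCAM, CDH1, PTPRC, CDH5, COL3A1 and LUM were below the brightness limit, while KRT18 and COL1A2 lay above the 91st percentile of every array. COL1A2 differed by -0.56 and PDGFRA, between the 55.3rd and 93.8th percentiles, by -1.94 on the log2 scale (aligned minus random). Markers of fibroblasts, 4 of 6 above that limit, had a summed linear level of 1376 to 4210 on aligned and 3446 to 4911 on random fibers. The ranges overlap for the astroglial and for the fibroblast markers, and the part of either in the members' differences was not tested. Of the 5 markers each, 3 of endothelial cells, 1 of microglia and leukocytes, 2 of epithelial cells and 3 of neurons and oligodendrocytes were above the limit. In such bulk RNA, fewer cells with a transcript and less of it per cell cannot be told apart.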

How the data were processed

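The values are on a log2 scale and were deposited after RMA by the authors, as the submitters' processing notes name it, with version and settings not stated there. RMA brings arrays to a common distribution, so a shift common to all genes cannot be seen. After removal of 62 control probe sets from 54675, a brightness filter took those above the median of their own array on 3 or more of the 6 arrays (27621), and each gene was represented by its brightest such probe set.

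Aligned minus random was fitted over 12381 genes in R 4.3.3 with limma 3.58.1 (lmFit, eBayes), without covariates, and p-values were adjusted by Benjamini-Hochberg over all genes at a threshold of 0.05. Probe sets were fitted likewise. The code was tested on simulated data. The number of arrays limits the precision. Relatives were compared by exact permutation in scipy 1.17.1, a test added after values were seen, as were the motif search and the count of arrays numbered 1. Figures used matplotlib 3.10.9.

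The members and lists were chosen with earlier results of these data known. The text names all 10 members and, from every list, up to 4 genes by smallest unadjusted p. P4HB, HIF1A, EPAS1 and VEGFA were added after their values were seen.

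Deviations from the group means correlated by 0.369, 0.322 and 0.109 between arrays numbered 1, 2 and 3, all above a limit of 0.1 for pairing. No label states the pairing, and aligned 2 and random 3 also correlated, by 0.188. The tests printed do not use the number unless a block is named, and the fit with it as a block was an alternative. Other alternatives were no filter or one at the 75th percentile, median centring, a second quantile normalization, a trended and robust prior, weights per array, the mean of kept probe sets, omission of probe sets whose suffix marks shared sequence, and each array left out in turn.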

Additional observations from a re-analysis of the deposited data

How the results depend on the processing

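The median of the members was -0.023 with the filter at the 75th percentile, where 7 members were measured, LOX, LOXL3 and LOXL4 falling out. Without probe sets of shared sequence 1 member of 6 measured, PLOD1, had an unadjusted p under 0.05 in limma, as did 10.6% of all genes, and the median was -0.056, since the bright sets of LOX, LOXL2, PLOD2 and P4HA1 carry that suffix. With array weights 5 members passed the adjusted threshold, LOX, LOXL4, PLOD1, PLOD2 and P4HA1, as did 2101 of all genes, but the estimate of the weights stopped before it converged, with a weight of 15.2 for aligned 2 and 0.245 for aligned 3. A replicate block in the fit left the count at an unadjusted p under 0.05 in limma at 4, with 13.6% of all genes at that limit. The count after adjustment stayed at 0. Leaving out 1 array in turn gave counts at the unadjusted limit of 2 to 6, medians of -0.27 to -0.11 and 0 members past the adjusted threshold. The share of all genes at the unadjusted limit ran from 5.04% without random 3 to 20.1% without aligned 1, where the count was 4. Signs turned in 14 of 143 values of single members, in LOXL1, LOXL2, PLOD3 and P4HA2 only. With array weights LOXL1 was at -0.17, PLOD3 at -0.0035 and P4HA2 at -0.092, and with the mean of kept probe sets LOXL2 was at 0.018 and P4HA2 at -0.014. With 1 array left out LOXL1 ranged from -0.10 to 0.19, LOXL2 from -0.20 to 0.15, PLOD3 from -0.018 to 0.081 and P4HA2 from -0.050 to 0.10. The other 6 members kept their sign under every alternative in which they were measured. Brightness limits the 6 dim probe sets, whose signal over background was not measured. They ranged from that of P4HA1, between percentiles 4.48 and 7.67, to 1 of LOXL2, between percentiles 40.9 and 47.1.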
